A study of Homo sapiens with 8 samples.

Results

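The glucocorticoid receptor NR3C1 was followed together with 7 genes around it in 2 human cell lines, labelled MM1S and OPM1, exposed to Zalypsis. These were the receptor's co-chaperones FKBP5 and FKBP4, its target gene TSC22D3, the coactivators NCOA1, NCOA2 and NCOA3, and the corepressor NCOR1. The members were chosen by name, as all probe sets that the platform's gene table assigns to these 8 genes. That table lists 23 such probe sets, which read 6 of the 8 genes: 5 for NR3C1, 3 each for FKBP5 and TSC22D3, and 4 each for FKBP4, NCOA1 and NCOA2. NCOA3 and NCOR1 have no probe set in the table used here, and they were not analysed here. In all, 19775 genes had a probe set with 1 gene symbol.

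Zalypsis is a DNA-binding compound of marine origin. MM1S and OPM1 are names of established lines of human multiple myeloma, the malignancy of plasma cells. However, the arrays labelled OPM1 were lower than MM1S in most plasma cell markers and higher in B-lineage markers, as given below. Of each line there were 2 untreated control arrays and 2 arrays of cells given Zalypsis at 5 nM and collected as cell death set in, at 15 to 20% dying cells. No glucocorticoid is named among the treatments in the labels, and no length of exposure was found in the sources. Whether the 2 arrays of a group stand for separate cultures is not said in the labels, so p-values measure only the spread from array to array, which may be technical. In bulk RNA, fewer cells with a transcript and less of it per cell cannot be told apart.

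Without hormone, the glucocorticoid receptor sits in the cytoplasm in a complex with the chaperone HSP90, the cochaperone p23 and an immunophilin such as FKBP5 (FKBP51) or FKBP4 (FKBP52). FKBP5 holds the receptor in a state of low affinity for hormone, and its exchange for FKBP4 goes with movement of the receptor to the nucleus. There the receptor binds DNA and recruits p160 coactivators (NCOA1, NCOA2, NCOA3) with histone acetyltransferases, or corepressors such as NCOR1. FKBP5 and TSC22D3 (GILZ) are classic genes induced by it, and FKBP5 closes a feedback loop on the receptor. In myeloma, glucocorticoids such as dexamethasone are used to kill the tumour cells through this receptor.

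Arrays of a group correlated at 0.988 to 0.993 over all probe sets on the log2 scale. The 3' to 5' signal ratio lay between 0.963 and 1.06 for GAPDH and between 1.78 and 2.62 for ACTB, except on OPM1 control 1, where it was 2.26 and 5.80. The poly-A controls, bacterial transcripts added before labelling, rose with treatment in OPM1, where the geometric mean of their 4 probe sets was 299.7 and 448 without and 1862 and 1349 with Zalypsis, and stayed between 19.7 and 25.7 in MM1S. Treated OPM1 also had the lowest upper quartile of signal, 77.5 and 78.7 against 101 to 115. The summed signal of 10 plasma cell markers was 39870 to 42180 in untreated MM1S and 8002 to 8728 in untreated OPM1. In untreated OPM1 9 of the 10 were called lower, and SDC1, near background at 9.71 ± 4.45 (SD, n = 2), was the only 1 below 25. CD38 was called higher, at 489 ± 126 against 54.2 ± 9.73 in untreated MM1S. The 9 B-lineage markers with a probe set were all called higher in untreated OPM1, with a sum of 11549 to 13267 against 340 to 415. The cells are therefore called OPM1-labelled, and OPM1 below stands for that label. Under Zalypsis the plasma cell sum was 29510 to 30908 in MM1S and 4349 to 4843 in OPM1, and the B-lineage sum in OPM1 was 5048 to 6098. Of 7 T, myeloid and erythroid markers, 4 to 6 lay below 25 in each group. Their sum was 509 to 669 and 522 to 533 in control and treated MM1S, mostly from HBB (means of 521 and 433), and 100 to 131 and 208 to 256 in OPM1, where CD14 went from a mean of 5.36 to 98.6. The part of these differences in the results that follow was not tested.

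The promoters of FKBP5 and TSC22D3 are shown because these are the receptor's classic target genes of the set and moved in opposite directions in OPM1. Each sequence is the 250 bases before an annotated start, read 5' to 3' on the gene's strand, from RefSeq (GRCh38.p14). Capitals mark GC boxes (GGGCGG on either strand) and the TATA box (TATAAA, either strand), and no other letters are capitals. TSC22D3 has 4 such windows and FKBP5 has 2. The windows upstream of the distal and of an internal TSC22D3 start and both FKBP5 windows are given, all on the minus strand.
TSC22D3 distal start (chrX:107775989-107776238): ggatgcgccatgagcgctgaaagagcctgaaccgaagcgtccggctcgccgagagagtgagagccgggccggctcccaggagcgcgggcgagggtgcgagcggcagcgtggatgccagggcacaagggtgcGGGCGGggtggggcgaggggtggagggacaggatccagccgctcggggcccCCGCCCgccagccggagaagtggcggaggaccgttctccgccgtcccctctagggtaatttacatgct
TSC22D3 internal start (chrX:107717063-107717312): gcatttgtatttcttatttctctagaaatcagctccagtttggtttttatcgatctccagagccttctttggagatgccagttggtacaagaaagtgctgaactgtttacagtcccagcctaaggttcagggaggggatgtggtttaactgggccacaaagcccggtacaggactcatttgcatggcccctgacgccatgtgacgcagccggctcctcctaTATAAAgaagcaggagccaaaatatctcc
FKBP5 distal start (chr6:35728584-35728833): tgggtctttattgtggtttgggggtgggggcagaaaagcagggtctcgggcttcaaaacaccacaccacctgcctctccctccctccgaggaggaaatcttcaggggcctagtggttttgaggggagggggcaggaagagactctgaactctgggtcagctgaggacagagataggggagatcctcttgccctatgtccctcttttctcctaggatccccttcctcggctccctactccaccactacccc
FKBP5 internal start (chr6:35688916-35689165): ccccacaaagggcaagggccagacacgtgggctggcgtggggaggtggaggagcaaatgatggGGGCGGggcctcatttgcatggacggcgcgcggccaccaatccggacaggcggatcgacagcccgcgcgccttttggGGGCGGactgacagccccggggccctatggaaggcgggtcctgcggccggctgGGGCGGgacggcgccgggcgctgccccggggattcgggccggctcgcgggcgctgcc
The TSC22D3 windows printed differ in composition. The distal one held 2 GC boxes and 71.2% G and C, and the internal one held a TATA box close to the start and 48.0%. The FKBP5 windows held 0 and 3 GC boxes, at 57.6% and 74.8%, against a median of 58.0% over 35116 promoter windows of that length. Of those windows 42.6% hold a GC box and 10.7% the TATA box letters. The palindromic glucocorticoid response element, searched on both strands as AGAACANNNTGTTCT, was in 1 window (0.00285%), the hexamer AGAACA of one arm in 12.4% and the cAMP response element TGACGTCA in 1.65%. None of these 3 was found in any window of NR3C1, FKBP5, TSC22D3, NCOA1, NCOA3 or NCOR1. No window was used for FKBP4 or NCOA2, so these were not searched. As the full element was in 1 of 35116 windows, its absence there carries no information, and bases beyond these 250 were not searched. The probe sets do not tell which start a transcript came from.

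Zalypsis lowered the receptor and both measured p160 coactivators in both lines. It lowered FKBP5 slightly in MM1S and steeply in OPM1, lowered FKBP4 in OPM1, and raised TSC22D3 in OPM1. In MM1S 4 of the 6 measured genes were called lower and 0 higher, by the probe set with the highest mean of each gene. The background there was 37.6% of 11865 genes called, 21.1% lower and 16.4% higher. In OPM1 5 of the 6 were called lower and 1 higher, where 63.9% of all genes were called, 38.5% lower and 25.4% higher. Calls were made where limma's p, adjusted over all genes tested by the Benjamini-Hochberg method, was under 0.05. The median change of the 6 was -0.66 in MM1S and -1.63 in OPM1 on the log2 scale, against 0.02 and -0.07 over all genes tested. With 6 genes these shares are a description. Lower genes made up 56.2% of all calls in MM1S and 60.3% in OPM1, and 42.4% and 42.8% after quantile normalization.

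Taken by probe set, 21 of the 23 were bright enough to be tested, and 2 of FKBP4 were not. In MM1S 14 of the 21 were called lower and 0 higher, where 32.2% of 24654 tested probe sets were called (19.5% lower, 12.6% higher). In OPM1 18 were called lower and 2 higher, where 57.9% were called (35.9% lower, 22% higher). Treated and control arrays did not overlap for 16 of the 21 in MM1S and 20 in OPM1, against 65.4% and 76.6% of all tested probe sets (66.4% and 80% of all tested genes). For the gene's brightest probe set the adjusted p below comes from the fit on genes, and for its other probe sets from the fit on probe sets.

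**Figure D1:**
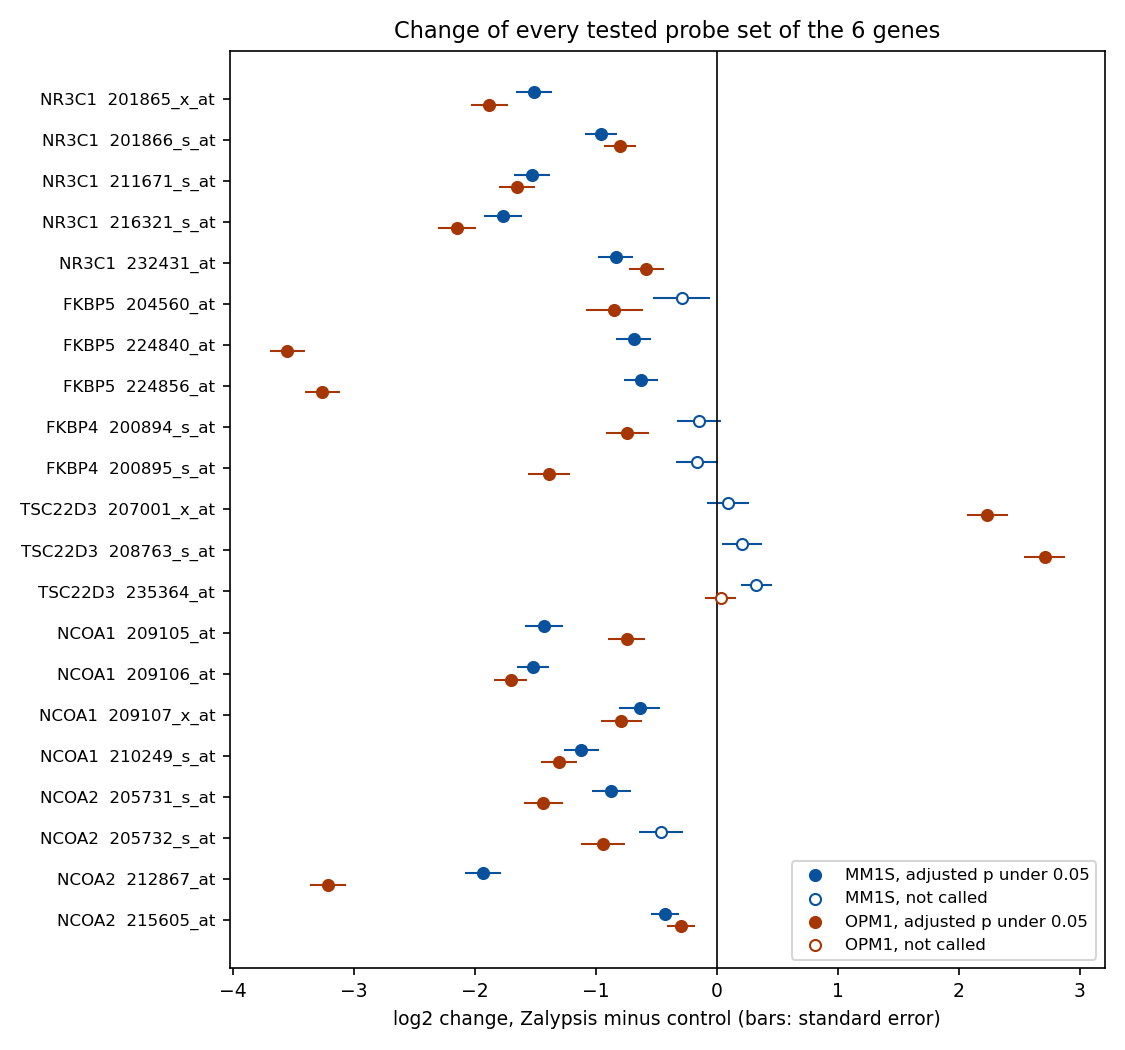
Log2 change (Zalypsis minus control, horizontal axis; bars are standard errors of the limma fit) of each of the 21 tested probe sets of the 6 genes, in MM1S (blue) and OPM1 (red); filled points have an adjusted p under 0.05. The probe sets of NR3C1, NCOA1 and NCOA2 lie left of 0 in both lines, 2 of the 3 of FKBP5 much farther left in OPM1, and 2 of the 3 of TSC22D3 far right of 0 in OPM1.

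NR3C1, which encodes the receptor itself, was brightest in untreated MM1S and fell in both lines. Its brightest probe set (201865_x_at) read 1820.1 and 1585 in MM1S controls and 616 and 537 after Zalypsis. In OPM1 it read 707 and 665 in controls and 146 and 182 after Zalypsis. The 4 groups did not overlap, in the order MM1S control, OPM1 control, MM1S treated and OPM1 treated, although untreated OPM1 and treated MM1S were separated by only the gap from 616 to 665. The log2 change was -1.51 ± 0.16 in MM1S (SE, adjusted p = 7.1e-08) and -1.88 ± 0.16 in OPM1 (adjusted p = 5.4e-10). The 2 changes differed by -0.37 ± 0.22, which was not called (adjusted p = 0.182).

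The other 4 probe sets of NR3C1 moved the same way. All 5 were called lower in both lines, with log2 changes from -1.77 to -0.84 in MM1S and from -2.15 to -0.58 in OPM1. The largest change was that of 216321_s_at, which read 1021 and 889.8, then 259 and 255 in MM1S, and 318 and 238, then 42.3 and 32.9 in OPM1. The smallest in OPM1 was that of 232431_at, at 70.3 and 54.6 in controls and 30.3 and 31.4 after treatment. This dimmer set lies near the offset of 32 added before taking logs, which compresses its change. For 0 of the 5 was the difference between the lines' responses called.

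The receptor's nearest relative NR3C2, the mineralocorticoid receptor, which also binds cortisol, was too dim to be tested. It was listed at 46.8 and 53.5 in MM1S controls and at 1.83 and 1.35 after Zalypsis. In OPM1 all 4 arrays lay between 1.91 and 7.20. The median of all probe sets was 23.0 to 24.8 on each array, so only the MM1S controls stood above it.

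FKBP5, the co-chaperone that keeps the receptor in its low-affinity state, started higher in OPM1 than in MM1S and ended lower. Its brightest probe set (224840_at) read 802 and 694 in MM1S controls and 443 and 459.6 after Zalypsis. In OPM1 it read 1851 and 1606 in controls and 127 and 109.6 after treatment. The 4 groups did not overlap, and the treated OPM1 arrays were the lowest. The change was -0.69 ± 0.15 in MM1S (adjusted p = 0.00102) and -3.55 ± 0.15 in OPM1 (adjusted p = 1.5e-14), and their difference of -2.86 ± 0.22 was called (adjusted p = 1.2e-09).

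A second probe set of FKBP5 (224856_at) gave nearly the same picture. It read 283 and 306, then 182 and 177 in MM1S, and 595 and 753, then 41.2 on both treated arrays in OPM1. Its change was -0.63 ± 0.14 in MM1S (adjusted p = 0.00398) and -3.26 ± 0.14 in OPM1 (adjusted p = 4.8e-10). The third (204560_at) was dim and uneven, at 26.1 and 51.7 in MM1S controls and 35.6 and 95.0 in OPM1 controls. It was called lower in OPM1 (-0.85 ± 0.23, adjusted p = 0.00671) and not in MM1S (-0.29 ± 0.23), and its difference between the lines was not called.

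FKBP4, the co-chaperone that replaces FKBP5 on the way to the nucleus, fell in OPM1. Its brightest probe set (200895_s_at) read 1423 and 953 in MM1S controls, 1118 and 966 in treated MM1S, 1227 and 1309.7 in OPM1 controls, and 477 and 451 in treated OPM1. Treated MM1S and untreated OPM1 lay within the range of the MM1S controls, and treated OPM1 lay below all other arrays. The change was -1.39 ± 0.17 in OPM1 (adjusted p = 2.3e-07) and -0.16 ± 0.17 in MM1S (adjusted p = 0.499), and the difference of -1.23 ± 0.24 was called (adjusted p = 2.3e-04). Without MM1S control 2 the change in MM1S was -0.44 and was called (adjusted p = 0.0497). A second probe set (200894_s_at) was also called lower in OPM1, by -0.74 ± 0.18, and its difference between the lines was not called (-0.59, adjusted p = 0.0836). Both remaining sets of FKBP4 were below the signal of 20.0 used as the limit. Both tested sets are marked as able to read several transcripts, and the set without such a mark (1560303_at) was too dim to be tested.

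TSC22D3, the leucine zipper protein that carries much of the anti-inflammatory and lymphocyte-killing action of glucocorticoids, was the only one of the 6 genes called higher. Its brightest probe set (208763_s_at) read 225 and 205 in OPM1 controls and 1725 and 1449 after Zalypsis. In MM1S it read 1077 and 847 in controls and 1256 and 977 after treatment, and these groups overlapped. The order of the groups was OPM1 control lowest, both MM1S groups together, and OPM1 treated highest. The change was 2.71 ± 0.17 in OPM1 (adjusted p = 3.8e-12) and 0.21 ± 0.17 in MM1S (adjusted p = 0.358), and the difference of 2.50 ± 0.24 was called (adjusted p = 2.8e-08).

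The TSC22D3 result rests on probe sets that can read several transcripts. A second one (207001_x_at) went from 8.08 and 22.0 to 155 and 225 in OPM1 and from 94.0 and 105 to 116 and 102 in MM1S, with a log2 change of 2.24 ± 0.17 in OPM1 (adjusted p = 6.9e-08). The third (235364_at), the only one not marked as shared between transcripts, was dim on all arrays, between 15.0 and 32.9. It changed by 0.03 ± 0.13 in OPM1 (adjusted p = 0.855) and by 0.33 ± 0.13 in MM1S (adjusted p = 0.0656). Each array was also scaled by its poly-A controls to the level of the untreated arrays of its own line (poly-A scaling). The rise of TSC22D3 in OPM1 was then 0.68 (adjusted p = 0.0316). Its difference between the lines was no longer called (0.69, adjusted p = 0.129). That scaling shifts the median of all genes in OPM1 from -0.07 to -1.42. It multiplies all values of an array by the same factor. The place of TSC22D3 above that median is thus kept nearly by construction and is no further result. The gap in poly-A signal between the untreated lines is left as it is. In MM1S the poly-A controls lay near the array medians of 23.8 to 24.8, so scaling there rests on values near background.

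NCOA2 (GRIP1, TIF2), a p160 coactivator with which the receptor both activates and represses genes, fell further in OPM1. Its brightest probe set (212867_at) read 597 and 500.5 in MM1S controls and 130.5 and 109 after Zalypsis, and 519.8 and 509 in OPM1 controls and 32.4 and 22.0 after treatment. The control arrays of the 2 lines overlapped in range, and the treated OPM1 arrays were near the median of all probe sets. The change was -1.93 ± 0.14 in MM1S (adjusted p = 4.1e-10) and -3.21 ± 0.14 in OPM1 (adjusted p = 2.5e-14). The difference of -1.28 ± 0.20 was called (adjusted p = 2.2e-05). Of the other 3 probe sets, dimmer by far, 2 were called lower in MM1S and all 3 in OPM1, with 0 called differences between the lines. The smallest change in OPM1 was that of 215605_at (-0.30 ± 0.12, adjusted p = 0.0407), which was not called without the filter on dim probe sets (adjusted p = 0.0798).

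NCOA1 (SRC-1), the first p160 coactivator described, fell in both lines. Its brightest probe set (209107_x_at) read 165 and 163 in MM1S controls and 103 and 85.8 after Zalypsis, and 316 and 259 in OPM1 controls and 186 and 123 after treatment. Within each line the groups did not overlap, while MM1S control lay inside the range of treated OPM1. The change was -0.64 ± 0.15 in MM1S (adjusted p = 0.00235) and -0.79 ± 0.15 in OPM1 (adjusted p = 1.2e-04), and the difference of -0.15 ± 0.22 was not called (adjusted p = 0.601). After quantile normalization the change in OPM1 was -0.34 and was not called (adjusted p = 0.0857).

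All 4 probe sets of NCOA1 were called lower in both lines, and the other 3 changed by -1.12 to -1.52 in MM1S. Of these, 209106_at read 113 and 105, then 19.7 and 14.9 in MM1S, and 98.1 and 109, then 5.29 and 14.3 in OPM1. Its changes were -1.52 ± 0.13 and -1.70 ± 0.13. For 209105_at the fall was larger in MM1S (-1.43 ± 0.15) than in OPM1 (-0.74 ± 0.15), a called difference of 0.68 ± 0.22 (adjusted p = 0.0244), with control arrays of 68.3 and 83.3 in MM1S and 28.2 and 51.9 in OPM1. Without the filter on dim probe sets that difference was not called (adjusted p = 0.0550). Treated arrays of the set lay between 7.15 and 11.7 in both lines, below the array median.

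**Figure D2:**
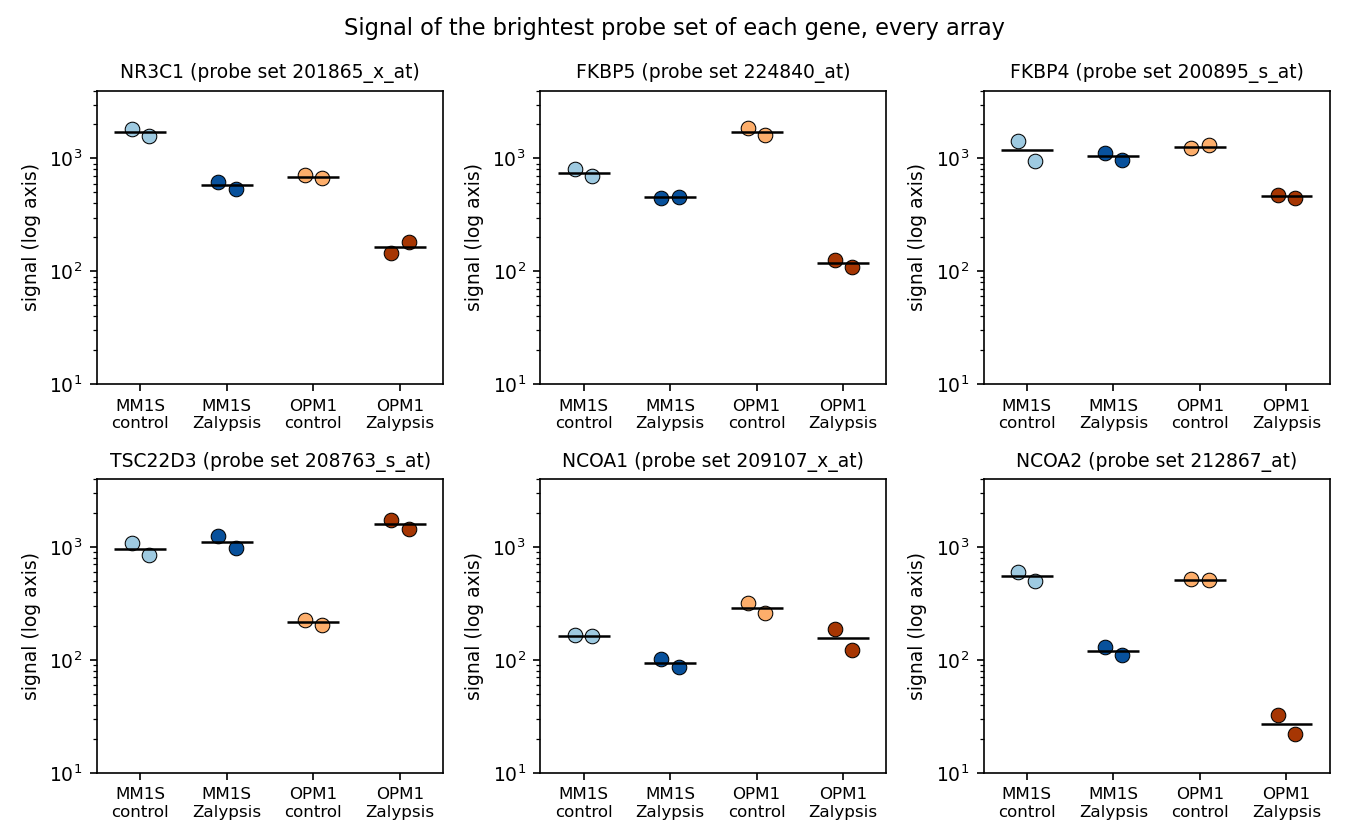
Signal on a log axis of the brightest probe set of each of the 6 genes on every array; points are arrays, lines are the means of 2 arrays, and the 4 groups are control and Zalypsis in MM1S (blue) and OPM1 (orange). FKBP5 starts highest and ends lowest in OPM1, TSC22D3 in OPM1 goes from 205 and 225 to 1449 and 1725, and NR3C1 and NCOA2 step down in both lines.

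The comparison of the 2 responses asks where the lines differ. Of the 6 genes, 3 responded lower in OPM1 (FKBP5, NCOA2 and FKBP4) and 1 higher (TSC22D3), where 46.6% of all genes were called, 31.2% lower and 15.3% higher. For NR3C1 and NCOA1 the difference was not called. By probe set, 4 of 21 were called lower and 3 higher, with a background of 38.6% (26.1% and 12.5%). Lower genes made up 67.0% of all called differences, and 50.5% after quantile normalization. Poly-A scaling moves the median difference of all genes from -0.13 to -1.27. Under it the differences of NR3C1 (-1.63) and NCOA1 (-1.45) were called. That of TSC22D3 was no longer called (0.69, adjusted p = 0.129).

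Before treatment the lines differed in 4 of the 6 genes. In untreated OPM1 the receptor NR3C1 was lower, at -1.27 ± 0.16 (adjusted p = 3.1e-07), with all 5 of its probe sets called lower. TSC22D3 was lower, at -2.001 ± 0.17 (adjusted p = 6.7e-10). FKBP5 was higher by 1.17 ± 0.15 (adjusted p = 6.9e-07), with 2 of its 3 probe sets called, and NCOA1 by 0.70 ± 0.15 (adjusted p = 4.5e-04). The 2 target genes thus lay on opposite sides, TSC22D3 lower like the receptor and FKBP5 higher. FKBP4 and NCOA2 were not called, at 0.12 ± 0.17 and -0.08 ± 0.14, but FKBP4 was called without MM1S control 1 (0.40, adjusted p = 0.0463). Over all genes 63.7% were called in this comparison, 28.6% higher and 35.2% lower, and by probe set 3 of 21 were called higher and 9 lower, where 56.8% of all were called (25.4% higher and 31.4% lower).

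The untreated values of some genes depend on the probe set. For NCOA1, 209105_at was called lower in untreated OPM1 (-0.60 ± 0.15, adjusted p = 0.00465), and 209106_at and 210249_s_at lay at -0.06 and 0.18, not called. For FKBP4, 200894_s_at was called lower (-0.89 ± 0.18, adjusted p = 7.7e-04) while the brightest one was not called. TSC22D3 was at -1.500 ± 0.17 in 207001_x_at and not called in 235364_at (0.23). Untreated arrays of the lines did not overlap for 15 of the 21 sets, against 76.8% of all tested probe sets and 79.6% of genes.

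Beyond these genes, 40 of a list of 42 glucocorticoid target genes had a probe set and 34 were tested, FKBP5 and TSC22D3 among them. In MM1S 11 were called higher, 6 lower and 17 not called, with a median log2 change of 0.13 against 0.02 over all genes. That is 32.4% higher and 17.6% lower, against 16.4% and 21.1% of all genes tested. In OPM1 14 were called higher, 12 lower and 8 not called, with a median of 0.13 against -0.07. That is 41.2% higher and 35.3% lower, against 25.4% and 38.5%. The target genes thus moved both ways in each line, as the plot of the gene lists shows. Under poly-A scaling 4 were higher in MM1S, and 1 was higher and 27 were lower in OPM1, with a median of -1.07 against -1.42 for all genes. Without probe sets shared between transcripts, 4 were higher and 5 lower of 22 tested in MM1S, and 4 and 8 in OPM1. The medians of all genes tested were then 0.03 in MM1S and -0.03 in OPM1. Without MM1S Zalypsis 1, 7 were higher in MM1S.

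Among target genes, SOCS1, a brake on cytokine signalling, rose from 34.6 ± 14.8 to 169.5 ± 14.6 in MM1S (SD, n = 2; log2 1.61 ± 0.15). DUSP1, the phosphatase that switches off MAP kinases, rose from 153 ± 19.5 to 460.0 ± 2.27 in MM1S (1.41 ± 0.13) and from 80.6 ± 7.55 to 188 ± 8.32 in OPM1 (0.97 ± 0.13). CDKN1C, which encodes the cell cycle inhibitor p57, rose by 1.39 ± 0.12 in MM1S. NFKBIA, the inhibitor of NF-kappaB, rose by 1.00 ± 0.17 in MM1S and 1.94 ± 0.17 in OPM1. All of these had an adjusted p at or below 6.7e-05. Under poly-A scaling DUSP1 fell in OPM1 by 0.58 and NFKBIA was called in neither line (0.78 in MM1S, adjusted p = 0.0524, and -0.07 in OPM1).

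SGK1, a kinase that regulates sodium transport, also rose in OPM1. It went from 34.5 ± 3.43 to 279.5 ± 1.46 in OPM1 (log2 2.23 ± 0.14, adjusted p = 7.5e-12) and from 1093 ± 63.7 to 848 ± 48.7 in MM1S, which was not called (-0.35 ± 0.14, adjusted p = 0.0558). Their difference of 2.58 ± 0.20 was called (adjusted p = 1.9e-09). The fall in MM1S was called under some alternatives. Examples are quantile normalization (-0.28, adjusted p = 0.0432) and the replicate number as a block (-0.35, adjusted p = 0.0119). GADD45B, a stress-response gene, rose by 2.05 ± 0.16 in OPM1. Under poly-A scaling neither was called in OPM1, SGK1 at 0.53 and GADD45B at 0.12.

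Other target genes went the way of FKBP5 in OPM1. CXCR4, the chemokine receptor that holds plasma cells in the marrow, fell from 3309 ± 188 to 397 ± 25.4 in OPM1 (log2 -2.96 ± 0.15) and was not called in MM1S (0.17 ± 0.15, adjusted p = 0.412). IL7R, the interleukin-7 receptor, fell from 627 ± 53.6 to 55.0 ± 13.4 in OPM1 (-2.93 ± 0.13) and lay at 13.2 ± 3.47 and 16.3 ± 1.62 in MM1S. KLF13, a Krüppel-like transcription factor, fell in both lines, with -0.70 ± 0.16 in MM1S and -2.45 ± 0.16 in OPM1. The differences between the lines were called for CXCR4 and KLF13. IL7R was below the array median in MM1S, so its response there was not measurable.

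Of the other target genes on the list, KLF9 was called higher in OPM1 (0.41 ± 0.13, adjusted p = 0.00947) and lost that call without OPM1 control 1 (0.35) and turned to -0.65 under poly-A scaling. DDIT4, an inhibitor of mTOR signalling, was called lower in OPM1 (-0.90 ± 0.15, adjusted p = 2.5e-05). BCL2L11, which encodes the death-promoting protein BIM, was not called in either line at its brightest probe set (-0.04 and -0.02), and its probe sets did not agree: their mean changed by 0.49 in OPM1. ZBTB16 was too dim to be tested, between 13.0 and 27.5 on all arrays, and PER1 was not analysed here.

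Of 35 listed chaperones and regulators of steroid receptors 27 were tested, FKBP5 and FKBP4 among them. MM1S had 3 called higher and 5 lower, and OPM1 7 higher and 13 lower. These are 11.1% and 18.5% in MM1S, against 16.4% and 21.1% of all genes tested, and 25.9% and 48.1% in OPM1, against 25.4% and 38.5%. The medians were -0.05 and -0.22, against 0.02 and -0.07 over all genes. HSP90AA1 and HSP90AB1, the 2 cytosolic HSP90 genes, changed little: -0.02 ± 0.10 and -0.21 ± 0.11 in MM1S, not called, and -0.33 in OPM1 for each. The OPM1 call was lost for HSP90AA1 without OPM1 Zalypsis 2 (-0.27) and for HSP90AB1 without OPM1 Zalypsis 1 (-0.27) or OPM1 control 2 (-0.16). PTGES3, which encodes p23, fell from 7202 ± 266 to 5158 ± 64.9 in MM1S (-0.48 ± 0.11) and from 6475 ± 567 to 2288 ± 271 in OPM1 (-1.49 ± 0.11, adjusted p = 7.7e-11). GSK3B, a kinase that phosphorylates the receptor, fell in both lines (-2.21 ± 0.13 and -2.47 ± 0.13). XPO1, the nuclear export receptor, and HSPA4, of the HSP70 family, fell in OPM1 (-2.003 and -1.80 on the log2 scale) and were not called in MM1S (-0.29 and -0.30). DNAJB1, an HSP40 co-chaperone, rose by 0.71 ± 0.16 and 1.06 ± 0.16, and turned to -0.95 in OPM1 under poly-A scaling. There 0 of the list were higher and 27 lower, while the median of all genes tested was -1.42. Without OPM1 control 1, 2 of the list were higher and 14 lower in OPM1, and without MM1S control 2 or MM1S Zalypsis 1, 1 was higher in MM1S. With the replicate number as a block 8 were lower in MM1S.

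Of 34 tested nuclear receptor coregulators (of 40 listed, NCOA1 and NCOA2 among them), 17 were called lower and 7 higher in MM1S and 22 lower and 7 higher in OPM1. Lower genes were 50% and 64.7% of the list, against 21.1% and 38.5% of all genes tested, and higher ones 20.6% in each line, against 16.4% and 25.4%. The medians were -0.45 and -0.74, against 0.02 and -0.07 over all genes. TBL1X and TBL1XR1, subunits of the NCOR1 corepressor complex, changed by -3.08 ± 0.16 and -1.49 ± 0.15 in MM1S and by -4.03 ± 0.16 and -3.53 ± 0.15 in OPM1. TBL1XR1 went from 3305 ± 276 to 1154 ± 60.8 in MM1S and from 1173 ± 61.5 to 72.1 ± 2.87 in OPM1. CREBBP, an acetyltransferase that p160 coactivators bring to the receptor, changed by -1.21 ± 0.15 and -2.39 ± 0.15, and its relative EP300 fell in OPM1 (-1.26 ± 0.17) and was not called in MM1S (-0.12 ± 0.17). PPARGC1B, another coactivator, changed by -1.42 ± 0.14 and -3.36 ± 0.14.

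A few coregulators rose. HEXIM1, an inhibitor of transcription elongation that also binds the glucocorticoid receptor, rose from 360.0 ± 13.4 to 2277 ± 178 in MM1S (log2 2.56 ± 0.15) and from 418 ± 40.4 to 2731 ± 110 in OPM1 (2.62 ± 0.15). Under poly-A scaling HEXIM1 was not called in OPM1 (0.56). RBM14 rose by 1.15 ± 0.15 and 1.29 ± 0.15, and was at -0.69 in OPM1 under that scaling. NRIP1 (RIP140), which represses nuclear receptors, was not called in either line (-0.07 and 0.02). It was 132 ± 41.3 in untreated MM1S. In OPM1 it was 4.97 ± 0.12 in controls and 5.545 ± 2.71 after Zalypsis, below the array median, so its response there was not measurable. Under poly-A scaling 0 of the 34 were higher in OPM1 and 32 lower, while the median of all genes tested was -1.42. Without MM1S control 2 or MM1S Zalypsis 1 fewer were higher in MM1S.

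Of 46 nuclear receptor genes listed, 37 had a probe set and 19 were bright enough to be tested, NR3C1 among them. In MM1S 4 were called higher and 5 lower, and in OPM1 1 was called higher and 9 lower. These are 21.1% and 26.3% in MM1S, against 16.4% and 21.1% of all genes tested, and 5.26% and 47.4% in OPM1, against 25.4% and 38.5%. The medians were -0.03 and -0.36, against 0.02 and -0.07 over all genes. After quantile normalization 5 were higher and 6 lower in OPM1, where the median of all genes tested was 0.16. Under poly-A scaling 0 were higher and 18 lower in OPM1, where that median was -1.42. Without MM1S control 1, MM1S Zalypsis 1 or MM1S Zalypsis 2, 3 were lower in MM1S. RXRA, the partner of many receptors, changed by -1.56 ± 0.13 in MM1S and -1.74 ± 0.13 in OPM1. NR4A1 (Nur77), an orphan receptor of the immediate early response, was called higher in MM1S (1.76 ± 0.16), and without probe sets shared between transcripts it lay at 0.02 and was not called.

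**Figure D3:**
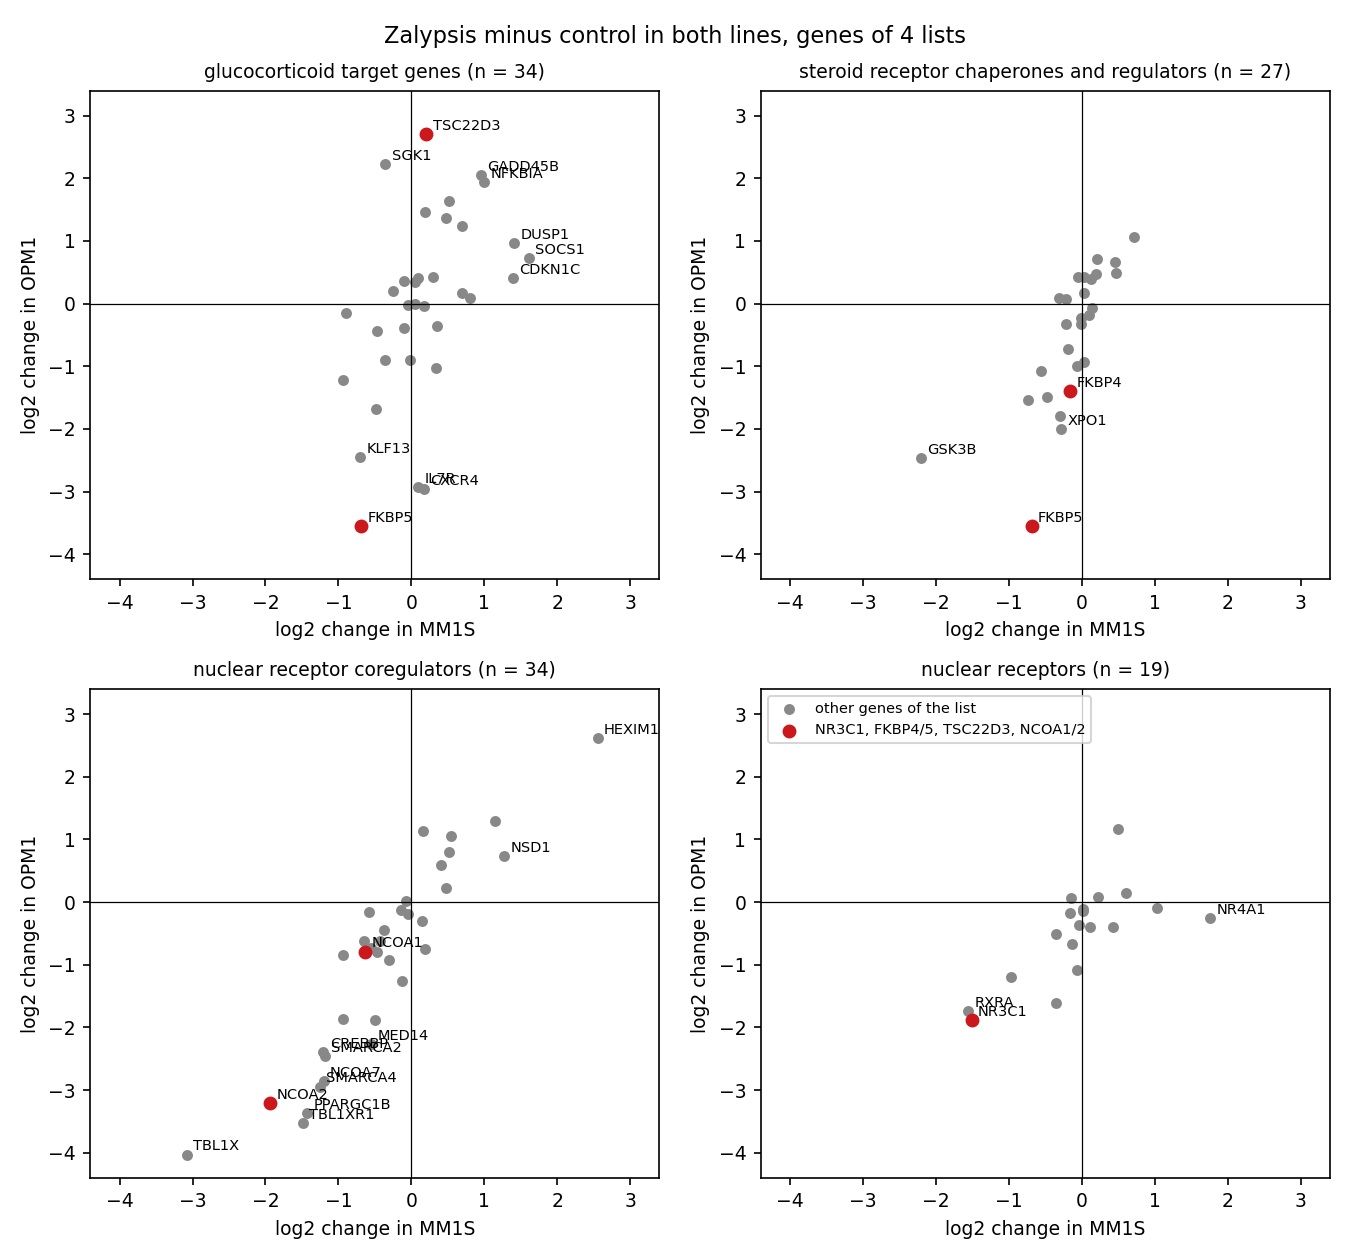
Log2 change (Zalypsis minus control) in MM1S on the horizontal and in OPM1 on the vertical axis, for the tested genes of 4 lists; each point is a gene, and red points are the genes described above. Target genes spread from FKBP5 at -3.55 to TSC22D3 at 2.71 in OPM1, while most coregulators lie below 0 in both lines.

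The measured genes also differ in how much of the genome they span. In RefSeq (GRCh38.p14) the gene spans 157.6 kb for NR3C1, 155.0 kb for FKBP5, 279.4 kb for NCOA1 and 346.7 kb for NCOA2, against 62.8 kb for TSC22D3 and 10.5 kb for FKBP4. The 4 that span over 100 kb were those called lower in both lines. Among all 1977 tested genes over 100 kb, 63.1% were called lower in MM1S and 65% in OPM1, with median log2 changes of -0.69 and -1.07. Among 5152 genes of 20 to 100 kb, the size class of TSC22D3, 20.4% were called lower and 13.3% higher in MM1S, and 47.2% and 17.8% in OPM1. Among 4722 genes of up to 20 kb, that of FKBP4, 4.38% were called lower in MM1S and 18% in OPM1, and 41.1% were called higher in OPM1. The part of the span in the changes of these 6 genes was not tested.

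**Figure D4:**
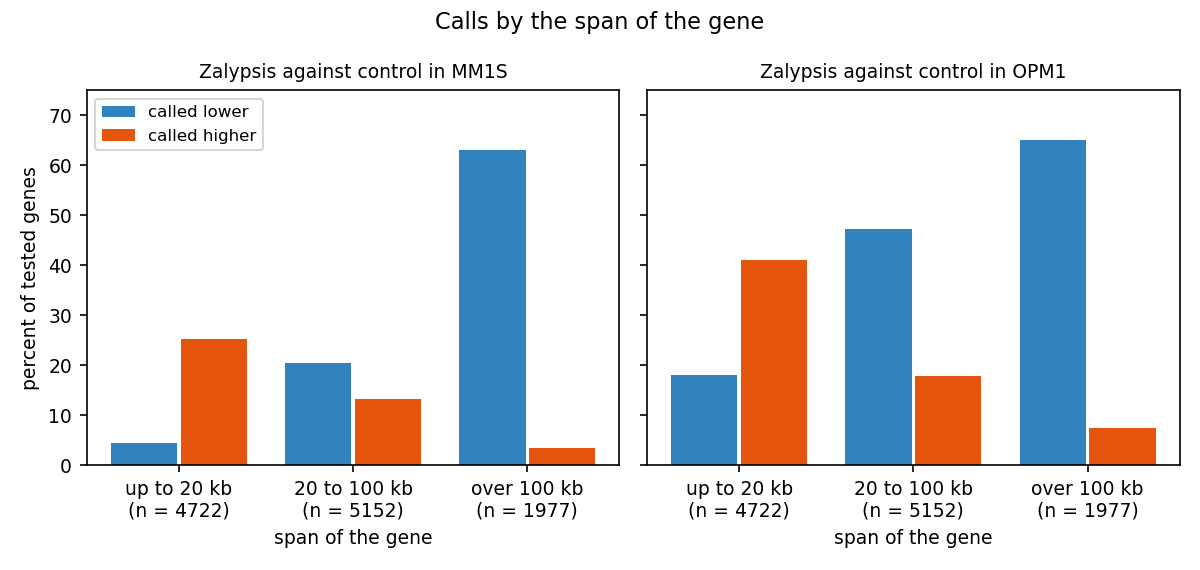
Percent of tested genes called lower (blue) or higher (orange) after Zalypsis, by the span of the gene in kb, in MM1S (left) and OPM1 (right). The share called lower goes from 4.38% in the shortest class to 63.1% in the longest in MM1S, and from 18% to 65% in OPM1.

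The patterns of NR3C1, FKBP5 and TSC22D3 over the 8 arrays were set against those of 6681 tested genes whose group means span at least 1 on the log2 scale. Closest to NR3C1 by Pearson's r over 8 arrays were PDK1 (0.996), STK10 (0.996) and RBM6 (0.996). PDK1 read 1577 and 1347 in MM1S controls and 50.9 and 50.2 in treated OPM1. Closest to FKBP5 were THEM6 (0.999), PRRC2B (0.997) and TAF1B (0.995), and THEM6 read 238 and 217 in OPM1 controls and 26.2 and 21.2 after treatment. Closest to TSC22D3 were CCNG2 (0.995), TPRG1L (0.993) and DERL2 (0.993), with CCNG2 at 250.4 and 242 in OPM1 controls and 968 and 1017 after treatment. The 8 arrays form 4 groups, so these values mostly compare 4 group means and describe likeness of pattern only.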

How the data were processed

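RNA from 8 samples of MM1S and OPM1 cells was hybridised to 8 HG-U133 Plus 2.0 arrays. Total RNA (100 ng) went through 2 cycles of amplification, per the labels' protocols. The authors deposited intensity values on a linear scale for 54675 probe sets, made in dChip per the series' design text. For dChip's version, normalization and probe model, and for the genome build: not given in the sources used here. Of the probe sets, 41091 carried 1 gene symbol, 1801 several and 11721 none in the platform table, 62 were controls, and for 41037 probe sets the symbol was matched to a RefSeq gene (GRCh38.p14).

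Values were taken as log2(value + 32), which understates changes of dim genes. The probe set with the highest mean log2 value stood for a gene, and the lowest 40% of genes were left out (signal under 27.3), which left 11865. A second fit took all probe sets with 1 symbol above a signal of 20.0 (24654). limma 3.58.1 (R 4.3.3) compared the group means (eBayes with trend, 4 residual degrees of freedom, prior 17.0), with Benjamini-Hochberg adjustment within each comparison. The fit was tested on simulated data with known changes. Arrays have no read depth, and the precision is limited by how many there are.

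Named genes are the members, 16 genes fixed by name (1 of them is left out of the text), up to 4 called genes each way per list and comparison, and the 3 most alike by pattern. The members and lists were chosen with earlier results of these data known. CD14 was chosen after its values were seen. Alternatives are listed in the closing section.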

Additional observations from a re-analysis of the deposited data

Results flagged for a closer look

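The response to Zalypsis differed between the lines, by the interaction term of the limma fit, for 4 of the 6 genes. Of all genes tested, 46.6% were called in this comparison. On the log2 scale, OPM1 minus MM1S, it was -2.86 for FKBP5, -1.23 for FKBP4, -1.28 for NCOA2 and 2.50 for TSC22D3. The TSC22D3 difference was not called under poly-A scaling (0.69, adjusted p = 0.129). Without probe sets shared between transcripts it was -0.29 and not called. The difference of the FKBP4 set 200894_s_at was not called (-0.59, adjusted p = 0.0836), and for NCOA2 1 of 4 sets was called.

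Among the target genes the response was higher in OPM1 for SGK1 (2.58), BTG1 (1.27) and GLUL (1.12) and lower for CXCR4 (-3.13), IL7R (-3.02) and KLF13 (-1.75). BTG1 and GLUL turned to the other sign under poly-A scaling, and BTG1 was at 0.056 and not called without probe sets shared between transcripts (adjusted p = 0.852). IL7R lay at 13.2 ± 3.47 and 16.3 ± 1.62 in MM1S, below the array median, so its value shows only the fall in OPM1. Among the chaperones and regulators it was lower for XPO1 (-1.72) and HSPA4 (-1.49). Among the coregulators it was higher for KAT2A (0.97), which turned under poly-A scaling, and lower for TBL1XR1 (-2.04), PPARGC1B (-1.94), MED14 (-1.72) and SMARCA4 (-1.69). Without probe sets shared between transcripts MED14 was at 0.33 and not called (adjusted p = 0.175). Among the nuclear receptors it was higher for RXRB (0.66), and lower for NR4A1 (-2.01), VDR (-1.26), NR4A2 (-1.13) and NR6A1 (-1.03). RXRB turned to -0.96 under poly-A scaling and was not called without MM1S Zalypsis 2 (0.50, adjusted p = 0.0982) or OPM1 Zalypsis 1 (0.58, adjusted p = 0.0510). NR4A1 was at -0.075 and not called without probe sets shared between transcripts (adjusted p = 0.788). NR6A1 was below the array median in MM1S, at means of 20.0 and 17.7, so its value shows only its fall in OPM1. NR4A2 lay near the array median in OPM1, at means of 25.6 and 22.0. Its value thus shows only its rise in MM1S, from 27.4 ± 4.53 to 91.2 ± 29.7. These genes were picked from the lists by the size of the difference.

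The poly-A controls, which take no part in the gene comparisons, had geometric means of 1862 and 1349 on the treated OPM1 arrays, above the 299.7 and 448 of the OPM1 controls.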

How the results depend on the processing

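Over the 6 measured genes, 4 comparisons and all alternatives, 436 of 452 values kept their direction and their side of the threshold, 8 lost a call, 4 gained one and 4 changed sign. Part of the 452 could change only in their p-value. Other filter settings, the replicate block, the fit without trend and losing an array outside the comparison do not move the log2 change. The sign changes were FKBP4 between the untreated lines by the mean of its probe sets (-0.33, adjusted p = 0.0216), and, without probe sets shared between transcripts, TSC22D3 in the difference (-0.29) and between the untreated lines (0.23) and NCOA1 between the untreated lines (-0.056). By the submitters' rule of a change over 2-fold between means, which left 1622 genes (MM1S), 4490 (OPM1), 3548 (difference) and 3892 (untreated lines), FKBP5 in MM1S (-0.73) and NCOA1 in 3 comparisons fell short. Poly-A scaling called 2628 genes in MM1S and 10041 for the difference. Leaving out 1 array at a time gave 3137 to 4772 (MM1S), 6773 to 7621 (OPM1), 4826 to 5506 (difference) and 6785 to 7442 calls (untreated lines). Same-numbered arrays of a line deviated together (r = 0.212 in MM1S and 0.209 in OPM1, 2 pairs each), and the replicate number as a replicate block gave 5461, 8101, 6344 and 8225 calls and changed no call of the 6 genes. Without a filter on dim probe sets, 14, 20, 6 and 12 of the members' sets were called, against 14, 20, 7 and 12. In OPM1 the NCOA2 set 215605_at was lost and the FKBP4 set 1560305_x_at gained (adjusted p = 0.0453), and the difference of the NCOA1 set 209105_at was lost. Dim probe sets near the added 32 show compressed changes.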

Other observations

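CD14, a surface marker of monocytes, was listed at 123 and 74.4 on the treated OPM1 arrays and at 11.0 or less on the other 6 arrays. It was chosen after its values were seen, and it was too dim over the 8 arrays to be tested. LYZ and CSF1R, other myeloid markers, lay between 5.53 and 28.6 on all arrays.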
